A study of Mus musculus with 8 samples.

Results

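Ribosome assembly genes were followed through renewed stimulation of intestinal intraepithelial lymphocytes (IEL), the T cells that lie between the epithelial cells of the gut. They were taken as the rows of the non-normalized bead array data whose identifier is one of 50 names, case ignored, with the identifier NOL1 read as Nop2. The 50 names stand for 45 distinct genes, and 30 of the 31492 array identifiers (IDs) met the rule. Of these 30 rows, 25 were tested, and all 25 were detected on all 8 arrays, with detection read from the signal. By the deposited detection p, 18 rows would have been tested. By that measure Lyar, Myc, Nip7, Nop58 and Npm1 were detected on 0 arrays, Bop1 on 2 and Heatr1 on 3. Of the 25 rows, 8 were read as single probes and the others as averages of several probes. Bysl, Dkc1, Rrs1 and Wdr12 were detected on 0 arrays and Nolc1 on 1, so these 5 rows were not tested and nothing is said of their direction. Another 15 genes of the list sit on the array under older identifiers that the rule does not reach, and are described separately below.

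The IEL came from C57BL/6 mice. They were expanded for 48 h on plate-bound antibody to CD3, the chains through which a T cell receptor signals, at 1 µg/ml with interleukins 2, 3, 4 and 15, then rested for 14 days in interleukin 2 and sorted by their CD8 chains. The 4 groups were CD8αα IEL after 24 h of renewed anti-CD3, CD8αα IEL at 0 h, CD8αβ IEL after 24 h of renewed anti-CD3 and CD8αβ IEL at 0 h, with 2 arrays each. All 4 groups therefore share the earlier stimulation, and the cells at 0 h are not fresh IEL. A group with 24 h of culture but no anti-CD3 was not among them. Effects of the antibody and of the longer culture cannot be told apart, and a response here means the difference of 24 h minus 0 h. The CD8αβ cells carry an αβ receptor per the labels, whereas the labels differ on the CD8αα cells (TCRcd in titles, TCRαα in source names, TCRγδ in the protocol). No label says whether replicates were separate cultures or animals, and the spread behind the p-values may thus be that of technical repeats alone. In total RNA of a cell population, a different share of cells of a type and a different amount of RNA per cell cannot be told apart.

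Ribosomes are built in the nucleolus, where RNA polymerase I copies ribosomal RNA and a large set of assembly factors fold, cut, chemically modify and pack it with ribosomal proteins. Small nucleolar RNA-protein particles (snoRNPs) guide the modification, those of the box C/D class placing methyl groups and those of the box H/ACA class pseudouridines. Separate groups of factors then mature the large and the small subunit. The transcription factor Myc is known as an activator of many of these genes, among others through the E-box motif CACGTG, and T cells enlarge their nucleoli when they are activated. The list also holds Srm, spermidine synthase, which is an enzyme of polyamine synthesis and not an assembly factor.

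The promoters of 4 of these genes are printed because the log2 changes of the tested rows had the same sign and because the E-box is the motif by which Myc is known to bind DNA. RefSeq promoters (GRCm38.p6, 250 bases before to 50 bases after the start of the gene, gene strand) were at hand for 24 genes of the 30 rows. The motif, which reads the same on both strands, lay in those of 3 genes, Nop2, Grwd1 and Pes1, which is 11.1% of their 27 promoters. It lay in 2349 of all 32851 promoters of the table (7.15%). Its first base is 60 bases before the start of Nop2, at base 35 from the start of Grwd1 and at base 3 from the start of Pes1. Rcl1 is shown as a gene without these letters in this window. Capitals mark the E-box.
Nop2 (chr6:125131633-125131932, plus strand): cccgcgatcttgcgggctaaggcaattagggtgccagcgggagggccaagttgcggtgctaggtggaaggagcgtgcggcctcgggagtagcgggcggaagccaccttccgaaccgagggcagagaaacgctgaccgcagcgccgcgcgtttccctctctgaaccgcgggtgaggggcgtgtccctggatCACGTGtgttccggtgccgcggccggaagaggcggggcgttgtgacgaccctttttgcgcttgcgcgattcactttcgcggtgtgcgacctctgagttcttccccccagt
Grwd1 (chr7:45830740-45831039, minus strand): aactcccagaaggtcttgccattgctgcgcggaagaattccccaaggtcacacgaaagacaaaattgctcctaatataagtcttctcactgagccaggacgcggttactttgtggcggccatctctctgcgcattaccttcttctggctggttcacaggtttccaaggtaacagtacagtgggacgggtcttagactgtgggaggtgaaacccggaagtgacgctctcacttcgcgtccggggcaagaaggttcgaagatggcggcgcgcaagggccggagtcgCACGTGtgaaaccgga
Pes1 (chr11:3963725-3964024, plus strand): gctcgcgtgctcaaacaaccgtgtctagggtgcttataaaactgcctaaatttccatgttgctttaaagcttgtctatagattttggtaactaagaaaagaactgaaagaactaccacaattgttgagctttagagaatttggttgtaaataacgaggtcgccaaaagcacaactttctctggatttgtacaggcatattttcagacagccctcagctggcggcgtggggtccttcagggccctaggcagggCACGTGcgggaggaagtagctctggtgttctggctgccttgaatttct
Rcl1 (chr19:29101125-29101424, plus strand): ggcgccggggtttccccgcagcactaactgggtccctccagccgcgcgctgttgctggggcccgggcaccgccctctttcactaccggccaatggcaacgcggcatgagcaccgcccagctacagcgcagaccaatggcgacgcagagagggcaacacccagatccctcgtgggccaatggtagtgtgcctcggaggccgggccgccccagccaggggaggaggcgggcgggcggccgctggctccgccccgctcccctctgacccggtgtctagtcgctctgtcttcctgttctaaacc
The log2 changes of Nop2, Grwd1, Pes1 and Rcl1 were 1.89, 1.88, 0.57 and 1.55 in CD8αα IEL. In CD8αβ IEL they were 1.34, 1.20, 0.30 and 1.09. Whether the motif bears on the response was not tested. No promoter was at hand for Bop1, Fbl, Myc, Npm1, Rrs1 and Srm. Among the listed genes that sit under older identifiers, 4 of 15 promoters held the motif (Pno1, Tsr1, Utp18 and Wdr43), and among those of other ribosome assembly genes 24 of 127 (18.9%).

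Values are normalized log2 signals of the bead arrays, one per array, with a moderated standard error (SE) of the log2 change from limma. A gene passed where its p, adjusted by Benjamini-Hochberg over all 9961 IDs tested, was under 0.05. Replicates of a group correlated with r of 0.953 to 0.963 over these IDs, and 8901 to 10166 IDs were detected per array (28.3 to 32.3%). All 8 T cell markers of a list of 8 were detected on all 8 arrays. Both arrays of replicate 2 of the CD8αα IEL lay on chip 2, and the other 6 arrays on chip 1. In CD8αα IEL the chip and the replicate number therefore cannot be told apart. Differences of 24 h minus 0 h are also given within each chip, and fits with the chip as a block beside the main ones. The 25 rows averaged 36 to 65.5 beads a probe, and the bead standard error was 2.19 to 4.76% of the signal.

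In CD8αα IEL, 6 of the 25 tested rows rose with renewed stimulation and 0 fell. They were Rcl1, Bop1, Lyar, Nop2, Gar1 and Ncl, at 1.79 to 3.70 times their 0 h signal. Across all IDs, 3.96% rose, 5.34% fell and 9.30% changed in either direction. All 25 rows had a positive log2 change, against 50.7% of all IDs, with a median of 1.24 against 0.01 over all IDs. In 24 of 25 rows both arrays at 24 h lay above both arrays at 0 h (30.7% of all IDs), the exception being Npm3, and in 0 rows did they lie below (28.6% of all IDs). A further 14 rows had an adjusted p of 0.05 to 0.10 in limma and did not pass, and no share over all IDs is at hand for that range. An unadjusted p under 0.05 in limma was found for 22 rows (2972 of all 9961 IDs). The median of 24 h minus 0 h was 1.26 on chip 1 and 1.25 on chip 2, and 16 of 25 rows had differences on the 2 chips within 0.25 of each other. With the chip as a block, 20 of 25 rows passed. The shares over all IDs above are those of the main fit and cannot be set against that count. The 6 calls depended on every array, since 0 rows passed without replicate 2 of the CD8αα IEL at 24 h or without either CD8αα array at 0 h, 1 passed without replicate 1 of the CD8αα IEL at 24 h, and 3 passed without any single CD8αβ array.

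**Figure D1:**
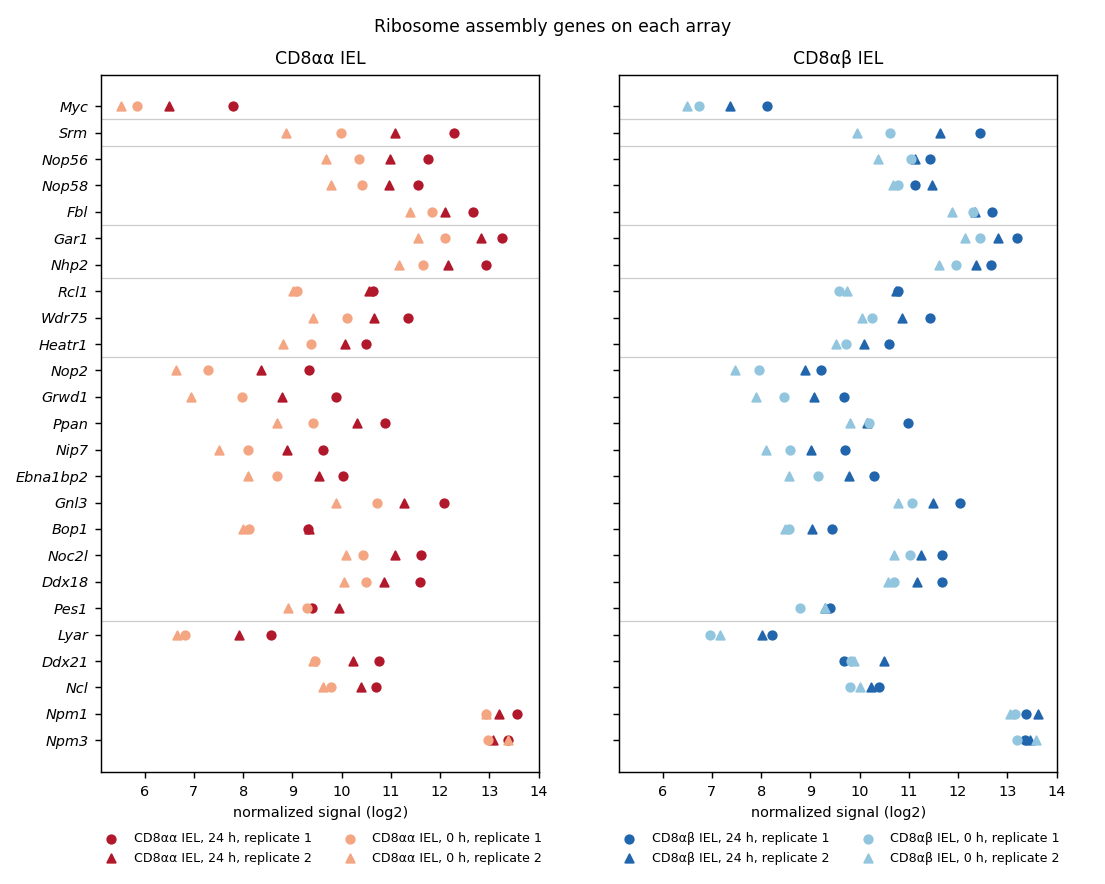
Normalized log2 signal (horizontal axis) of the 25 tested ribosome assembly genes (rows) on each of the 8 arrays, CD8αα IEL in one panel and CD8αβ IEL in the other, with 24 h and 0 h marked by colour and the replicates by symbol. In CD8αα IEL the 24 h arrays lie to the right of the 0 h arrays in 24 of 25 rows and in CD8αβ IEL in 22 of 25. Positions of different genes are not compared, since they come from different probes.

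Of the factors of the large subunit, 10 of 12 rows were tested and 2 rose in CD8αα IEL, with a median log2 change of 1.38. Nop2 (NOL1 on the array), a methyltransferase of the large subunit's ribosomal RNA, had 9.34 and 8.36 in CD8αα IEL at 24 h, against 7.28 and 6.64 at 0 h. Both arrays at 24 h were above both at 0 h, and the log2 change was 1.89 ± 0.39 (SE, n = 2 each, limma adjusted p = 0.037). Bop1, which with Pes1 and Wdr12 forms a complex needed for large subunit maturation, had 9.32 and 9.33 at 24 h, against 8.13 and 7.99 at 0 h. Its replicates lay closer to each other than those of Nop2, and its log2 change was 1.27 ± 0.20 (SE, limma adjusted p = 0.0243). Its partner Pes1 had 9.40 and 9.94 at 24 h, against 9.31 and 8.90 at 0 h, a change of 0.57 that did not pass (limma adjusted p = 0.227), and that was 0.10 on chip 1 and 1.03 on chip 2. The third partner, Wdr12, was not detected on any array. Grwd1, a WD repeat protein that acts as a chaperone in large subunit assembly, had the third largest change of the 25 rows, 1.88, with an SE of 0.50 and a limma adjusted p of 0.060. The others that did not pass had log2 changes of 1.55 (Ppan), 1.46 (Nip7), 1.39 (Ebna1bp2), 1.37 (Gnl3, nucleostemin, a GTPase of the nucleolus), 1.08 (Noc2l) and 0.95 (the RNA helicase Ddx18).

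Of the factors of the small subunit, 3 of 4 rows were tested and 1 rose in CD8αα IEL. Rcl1, a protein like RNA cyclases that is known from yeast as part of the small subunit's processing complex, had 10.64 and 10.55 in CD8αα IEL at 24 h, against 9.09 and 9.00 at 0 h. Its replicates differed by less than 0.10 at either time, and its log2 change of 1.55 ± 0.17 (SE, limma adjusted p = 0.0115) had the smallest p of the 25 rows. The change of Rcl1 was 1.55 on chip 1 and 1.54 on chip 2. Wdr75 and Heatr1, both proteins of the same processing complex, had changes of 1.24 and 1.18 and did not pass (limma adjusted p = 0.0715 and 0.0522).

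Among the snoRNP proteins, Gar1 (NOLA1 on the array), of the box H/ACA class, had 13.26 and 12.82 in CD8αα IEL at 24 h, against 12.11 and 11.54 at 0 h. Its arrays did not overlap and its log2 change was 1.22 ± 0.28 (SE, limma adjusted p = 0.0476), while its partner Nhp2 had a change of 1.13 that did not pass (limma adjusted p = 0.0712), and Dkc1, the pseudouridine synthase of that particle, was not detected. None of the 3 box C/D proteins passed. Of these, Nop58 (NOL5 on the array) had 11.55 and 10.95 at 24 h, against 10.40 and 9.79 at 0 h, a change of 1.16 ± 0.30 (SE, limma adjusted p = 0.0579). Its partner Nop56 had a change of 1.34 and the methyltransferase Fbl, fibrillarin, one of 0.78.

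Of the nucleolar proteins with a structural or regulatory role, 5 of 6 rows were tested and 2 rose. Lyar, a nucleolar zinc finger protein, had 8.56 and 7.91 in CD8αα IEL at 24 h, against 6.82 and 6.66 at 0 h, a log2 change of 1.50 ± 0.25 (SE, limma adjusted p = 0.0258). Ncl, nucleolin, had 10.70 and 10.38 at 24 h, against 9.78 and 9.62 at 0 h, a log2 change of 0.84 ± 0.20 (SE, limma adjusted p = 0.0482), the smallest of the 6 that passed. Neither gene's arrays overlapped between the times. The helicase Ddx21 had a change of 1.06, nucleophosmin Npm1 one of 0.46 and its relative Npm3 one of 0.05. Npm3 was the single row with opposite signs within the chips, at 0.40 on chip 1 and -0.30 on chip 2.

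The 2 members that are no structural part of the assembly line, Srm and Myc, did not pass. Srm had 12.29 and 11.09 in CD8αα IEL at 24 h, against 9.99 and 8.86 at 0 h, the largest log2 change of the 25 rows, 2.26, with the largest SE, 0.56 (limma adjusted p = 0.0522). Its change was 2.29 on chip 1 and 2.23 on chip 2, so the spread lay between replicates and hardly in the change within each. Myc had 7.80 and 6.50 at 24 h, against 5.85 and 5.52 at 0 h, a change of 1.47 ± 0.45 (SE, limma adjusted p = 0.0868) that was 1.95 on chip 1 and 0.98 on chip 2. The lowest signal of Myc before normalization, 101.8, lay near the detection thresholds of the arrays, 94.5 to 113.8, so the size of its change is uncertain.

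**Figure D2:**
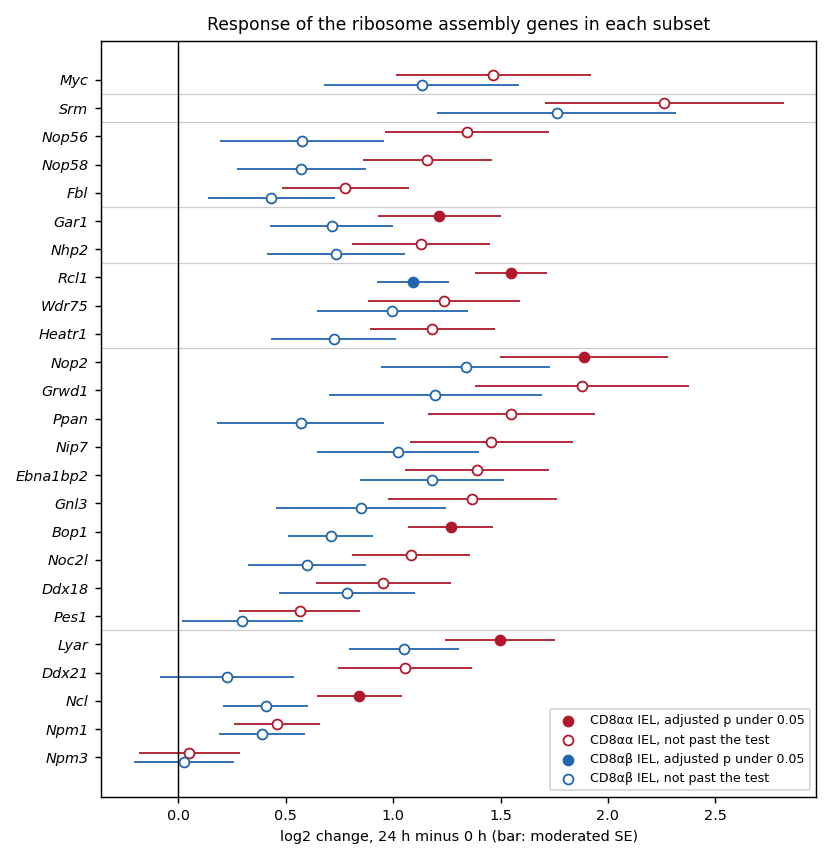
Log2 change of 24 h minus 0 h (horizontal axis) of the 25 tested genes (rows) in CD8αα and in CD8αβ IEL, with bars of 1 moderated SE and filled marks for genes that passed. All changes are positive in both subsets, and in each of the 25 rows the change in CD8αα IEL is the larger one.

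In CD8αβ IEL, 1 of the 25 rows rose, Rcl1, and 0 fell. Of all IDs, 1.80% rose, 1.24% fell and 3.04% changed in either direction. All 25 rows again had a positive log2 change (48.5% of all IDs), with a median of 0.72 against -0.02 over all IDs. Both arrays at 24 h lay above both at 0 h in 22 of 25 rows (27.7% of all IDs), the exceptions being Ddx21, Npm3 and Ppan, and below both in 0 rows (28.6% of all IDs). An unadjusted p under 0.05 in limma was found for 13 rows (2493 of all 9961 IDs). Rcl1 had 10.77 and 10.74 in CD8αβ IEL at 24 h, against 9.59 and 9.74 at 0 h, and its log2 change was 1.09 ± 0.17 (SE, limma adjusted p = 0.0342). With the chip as a block, Rcl1 and Nop2 passed. Both CD8αβ groups lay on chip 1, so no change within another chip exists. The call of Rcl1 was lost, leaving 0 rows, without any single CD8αβ array and without either CD8αα array at 0 h.

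The other members that were described for CD8αα IEL did not pass in CD8αβ IEL. Srm had 12.44 and 11.64 in CD8αβ IEL at 24 h, against 10.61 and 9.94 at 0 h, again the largest change of the 25 rows at 1.76 (limma adjusted p = 0.117). Nop2 followed with 9.22 and 8.89 at 24 h, against 7.96 and 7.47 at 0 h, a change of 1.34 (limma adjusted p = 0.102). Lyar had 8.21 and 8.02 at 24 h, against 6.96 and 7.17 at 0 h, a change of 1.05 (limma adjusted p = 0.0736). In all of these the arrays of the 2 times did not overlap. Bop1 had 9.44 and 9.04 at 24 h, against 8.56 and 8.49 at 0 h, a change of 0.71 (limma adjusted p = 0.0933). Myc had 8.11 and 7.38 at 24 h, against 6.73 and 6.49 at 0 h, a change of 1.13 (limma adjusted p = 0.185). Gar1 had 13.19 and 12.82 at 24 h, against 12.45 and 12.13 at 0 h, a change of 0.71. These groups did not overlap either. Nop58 had 11.13 and 11.47 at 24 h, against 10.78 and 10.68 at 0 h, a change of 0.57. Ncl had 10.39 and 10.24 at 24 h, against 9.80 and 10.01 at 0 h, a change of 0.41. For Ddx21, 24 h minus 0 h between arrays of equal replicate number was -0.14 in replicate 1 and 0.60 in replicate 2. For Npm3 it was 0.16 in replicate 1 and -0.11 in replicate 2. Equal numbers are not known to mark a pair.

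The order of the genes was much alike in both subsets. Across the 25 rows, the responses of CD8αα and CD8αβ IEL correlated with Pearson's r of 0.880 and Spearman's rho of 0.82. These are correlations across genes, which are not independent replicates. The arrays of the 2 responses are different ones but share chip 1 and the replicate numbers. Srm, Nop2 and Grwd1 had the 3 largest changes in both, while the 3 smallest were those of Npm3, Npm1 and Pes1 in CD8αα IEL and of Npm3, Ddx21 and Pes1 in CD8αβ IEL.

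**Figure D3:**
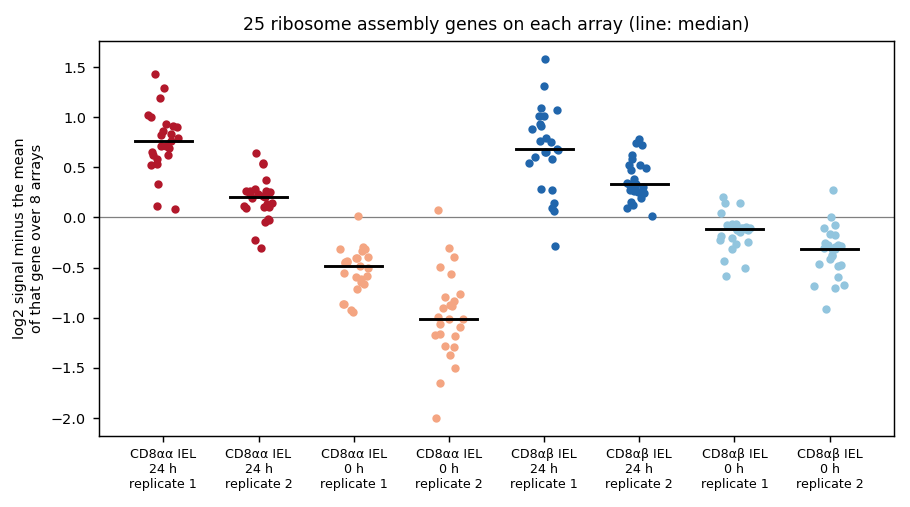
Log2 signal of the 25 tested genes on each of the 8 arrays, as the difference from that gene's mean over the 8 arrays, with the median as a line. Within every group, replicate 1 lies above replicate 2 for most genes, in 23 and 24 of 25 rows in CD8αα IEL at 24 h and 0 h and in 21 and 19 of 25 in CD8αβ IEL at 24 h and 0 h.

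The plot by array shows that the rows moved together between replicates as well as between times. Replicate 1 exceeded replicate 2 by a median log2 difference of 0.57 in CD8αα IEL at 24 h, 0.50 in CD8αα IEL at 0 h, 0.37 in CD8αβ IEL at 24 h and 0.24 in CD8αβ IEL at 0 h. This shared difference enters the SE of the genes.

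Between the subsets at 0 h, 0 of 25 rows passed, against 0.482% of all IDs (0.231% higher and 0.251% lower in CD8αα IEL), and the lowest limma adjusted p was 0.341. The log2 difference of CD8αα minus CD8αβ IEL was positive in 1 of 25 rows, Pes1, against 47.4% of all IDs, and negative in 24, with a median of -0.47, and in 16 rows both CD8αα arrays lay below both CD8αβ arrays, against 19.7% of all IDs. An unadjusted p under 0.05 in limma was found for 2 rows, Rcl1 (log2 difference -0.62) and Ppan (-0.95), against 701 of all 9961 IDs. The chip moves with this comparison, since 1 of the 2 CD8αα arrays lay on chip 2 and both CD8αβ arrays on chip 1. With the chip as a block the median was -0.22, and it was -0.75 without replicate 1 and -0.24 without replicate 2 of the CD8αα IEL at 0 h. Myc had 5.85 and 5.52 in CD8αα IEL at 0 h, against 6.73 and 6.49 in CD8αβ IEL at 0 h. The CD8αα arrays were the lower ones, and the log2 difference of -0.93 did not pass. The lowest signal of Myc lay near the detection threshold.

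At 24 h, 0 of 25 rows passed between the subsets, against 0.321% of all IDs (0.221% lower in CD8αα IEL, the others higher). An unadjusted p under 0.05 in limma was found for 0 rows, against 401 of all 9961 IDs. Of the 25 log2 differences 9 were positive, against 51.1% of all IDs, and 16 negative, and in 23 rows the arrays of the subsets overlapped. The exceptions were Pes1, with both CD8αα arrays above both CD8αβ arrays (11.9% of all IDs), and Rcl1, with both below (11.0% of all IDs). In CD8αα IEL, the chip and the replicate number cannot be told apart. The median of -0.10 turned to 0.23 with the chip as a block and to 0.25 on chip 1 alone. It was also 0.25 without replicate 2 of the CD8αα IEL at 24 h, 0.15 without replicate 1 of the CD8αβ IEL at 24 h, -0.35 without replicate 1 of the CD8αα IEL at 24 h and -0.30 without replicate 2 of the CD8αβ IEL at 24 h.

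The response of CD8αα IEL was larger than that of CD8αβ IEL in 25 of 25 rows (53.0% of all IDs), with a median difference of 0.46. That median depended on single arrays and on the background. It was 0.12 without replicate 1 and 0.74 without replicate 2 of the CD8αα IEL at 24 h, 0.18 without replicate 2 of the CD8αα IEL at 0 h, 0.25 without replicate 2 of the CD8αβ IEL at 24 h, and 0.21 with the background taken from all IDs. The difference itself passed in 0 of 25 rows and in 0 of all 9961 IDs (0% of all IDs). An unadjusted p under 0.05 in limma was found for 0 rows, against 166 of all 9961 IDs. The smallest p among the rows was 0.0884, for Bop1, whose response was 1.27 in CD8αα and 0.71 in CD8αβ IEL. For Rcl1 the responses were 1.55 in CD8αα and 1.09 in CD8αβ IEL, a difference of 0.46 with an SE of 0.24. The larger number of genes called in CD8αα IEL is therefore not shown to be a difference between the subsets.

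The 15 listed genes that sit under older identifiers were found through their annotation, together with second identifiers of Gnl3, Wdr75 and Nip7. Of these 18 rows, 16 were tested, those of Utp18 and the second of Nip7 being undetected. Tsr1 was undetected on both CD8αα arrays at 0 h, and Utp15 was undetected outside CD8αα IEL at 24 h. Both rows were tested only through groups in which they were high, so their positive changes are no added support. By the deposited detection p, Wdr43 and Polr1b were detected on 0 arrays. In CD8αα IEL, 6 of 16 rose (Pno1, Rrp12, Rrp9, Tsr1, Polr1a and Wdr43) and 0 fell, against 3.96% higher and 5.34% lower over all IDs, with a median log2 change of 1.47. Of these, Rrp9, a protein of the particle that guides early cleavage of the small subunit's RNA, had 10.77 and 10.02 in CD8αα IEL at 24 h, against 8.57 and 8.55 at 0 h. Pno1, which binds the immature small subunit, had 11.20 and 11.32 at 24 h, against 9.81 and 9.69 at 0 h. In both the arrays of the 2 times were more than 1 log2 unit apart, and the changes were 1.83 ± 0.30 and 1.51 ± 0.19 (SE, limma adjusted p = 0.025 and 0.0162). Polr1a, the largest subunit of RNA polymerase I, had 9.25 and 8.83 at 24 h, against 8.10 and 7.68 at 0 h, a change of 1.15 (limma adjusted p = 0.0463), while the subunits Polr1b and Polr1c had changes of 1.61 and 0.68 and did not pass. In CD8αβ IEL, Pno1 and Rrp9 rose, by 1.43 and 1.64 on the log2 scale (limma adjusted p = 0.0253 and 0.0458), against 1.80% higher over all IDs, and the median of the 16 rows was 1.01. Between the subsets 0 of 16 passed at either time, against 0.482% of all IDs at 0 h and 0.321% at 24 h. An unadjusted p under 0.05 in limma was found for 0 of them at either time. Of all 9961 IDs, 701 had one at 0 h and 401 at 24 h. The second identifier of Gnl3 gave 1.36 in CD8αα and 0.78 in CD8αβ IEL, close to the 1.37 and 0.85 of the first, and that of Wdr75 gave 1.43 and 1.03, beside 1.24 and 1.00.

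Outside the 45 genes, a list of other ribosome assembly genes held 155 IDs, of which 121 were tested. In CD8αα IEL, 21 of them rose and 1 fell (3.96% and 5.34% of all IDs), with a median log2 change of 0.70. In CD8αβ IEL, 4 rose and 0 fell (1.80% and 1.24% of all IDs), with a median of 0.49. The 6 with the smallest p in CD8αα IEL were Rpf2, Rrp15, Ltv1, Nop14, Nle1 and Eif6, with log2 changes of 1.87, 1.62, 1.34, 1.18, 1.59 and 1.07 (limma adjusted p of 0.021 to 0.024). Eif6, which keeps the large subunit from joining the small one too early, had 11.81 and 11.72 in CD8αα IEL at 24 h, against 10.73 and 10.64 at 0 h. It also rose in CD8αβ IEL, with 11.83 and 11.79 at 24 h, against 10.89 and 10.87 at 0 h, and so did Mphosph6, Gtpbp4 and Pop1. Pop1, a protein of the RNA-cutting enzymes RNase P and RNase MRP, was undetected at 0 h, and its signal was at least 1.47-fold higher at 24 h in CD8αα IEL and at least 1.39-fold higher at 24 h in CD8αβ IEL. The 1 gene that fell was Tsr3, which modifies the small subunit's RNA, with 9.37 and 9.31 in CD8αα IEL at 24 h, against 10.06 and 10.23 at 0 h (log2 change -0.80, limma adjusted p = 0.039).

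The ribosomal proteins were taken as a pair of lists, the cytosolic ones, which are the parts that these factors assemble, and the mitochondrial ones. Of 78 IDs of cytosolic ribosomal proteins, 0 passed in either response, and their median log2 change was -0.07 in CD8αα and 0.05 in CD8αβ IEL. An unadjusted p under 0.05 in limma was found for 3 in each, against 2972 of all 9961 IDs in CD8αα and 2493 in CD8αβ IEL. Of 70 IDs of mitochondrial ribosomal proteins, 7 rose in CD8αα IEL (3.96% of all IDs), with a median of 0.47. In CD8αβ IEL, 0 passed (3.04% of all IDs), with a median of 0.28. There 17 of 70 had an unadjusted p under 0.05 in limma, against 2493 of all 9961 IDs. The difference between these lists was not tested. Mitosis genes had negative changes in 15 of 15 IDs in both subsets, with medians of -0.62 in CD8αα and -1.19 in CD8αβ IEL. Over all 9961 IDs, 4908 changes were negative in CD8αα and 5129 in CD8αβ IEL. Of the mitosis genes, 1 fell in CD8αα IEL (Spag5, against 5.34% of all IDs). In CD8αβ IEL 2 fell (Spag5 and Kif22, against 1.24% of all IDs).

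**Figure D4:**
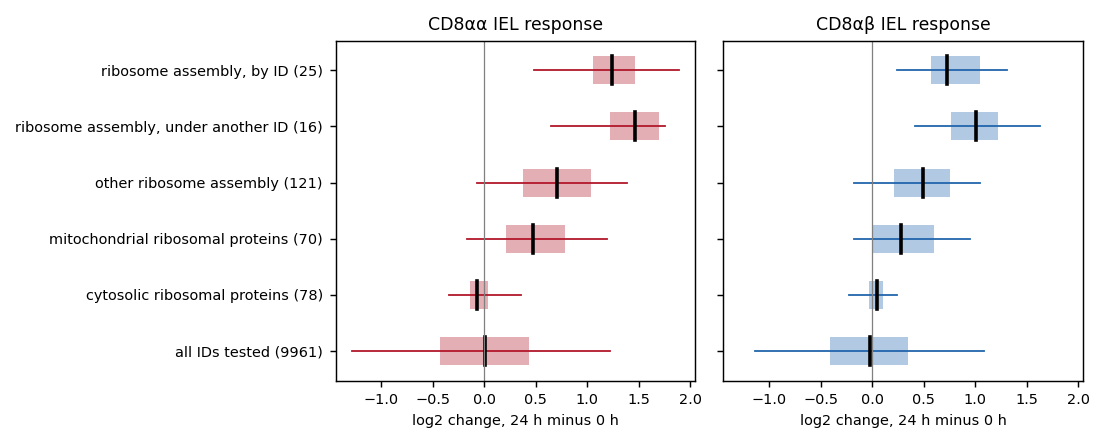
Log2 change of 24 h minus 0 h (horizontal axis) of the tested IDs of each list in CD8αα and in CD8αβ IEL, with a line for the median, a bar from the 25th to the 75th percentile and a thin line from the 5th to the 95th. The medians of the ribosome assembly rows are 1.24 in CD8αα and 0.72 in CD8αβ IEL, those of the cytosolic ribosomal proteins -0.07 and 0.05, and those of all IDs 0.01 and -0.02.

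Among the partners and antagonists of Myc, 6 of 12 IDs were tested. Their log2 changes were positive in 3 and negative in 3 in CD8αα IEL, the highest 0.77. In CD8αβ IEL, 2 were positive and 4 negative, the highest 0.75. In each subset 1 ID fell and 0 rose, while over all IDs 5.34% fell in CD8αα and 1.24% in CD8αβ IEL. Mxd3, a repressor that competes with Myc for their common partner Max, fell in both subsets. It had 5.81 and 4.87 in CD8αα IEL at 24 h, against 7.55 and 6.84 at 0 h (log2 change -1.85, limma adjusted p = 0.049), and 4.98 and 5.87 in CD8αβ IEL at 24 h, against 8.06 and 7.80 at 0 h (-2.50, limma adjusted p = 0.041). The gene was undetected on 1 of the 2 arrays at 24 h in each subset. The related repressor Mxd4, read by a pair of IDs, had log2 changes of -2.70 and -1.92 in CD8αα and -1.61 and -0.84 in CD8αβ IEL, of which 0 passed. Max had 0.04 in CD8αα and -0.13 in CD8αβ IEL.

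Of the genes around Srm in polyamine metabolism, 9 of 12 IDs were tested. Smox, which oxidizes spermine back to spermidine, rose in CD8αα IEL, where it was undetected on both arrays at 0 h and its signal was at least 2.12-fold higher at 24 h (limma adjusted p = 0.038). It also rose in CD8αβ IEL, with 7.45 and 7.82 at 24 h, against 5.56 and 5.85 at 0 h, a log2 change of 1.94 (limma adjusted p = 0.034), and was undetected there on 1 of the 2 arrays at 0 h. Sms, spermine synthase, rose in CD8αα IEL, with 11.79 and 11.95 at 24 h, against 10.90 and 10.61 at 0 h, a log2 change of 1.11 (limma adjusted p = 0.037), and had a change of 0.76 in CD8αβ IEL that did not pass. Odc1, ornithine decarboxylase, the first enzyme of the pathway, had changes of 0.48 in CD8αα and 0.10 in CD8αβ IEL, neither of which passed.

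**Figure D5:**
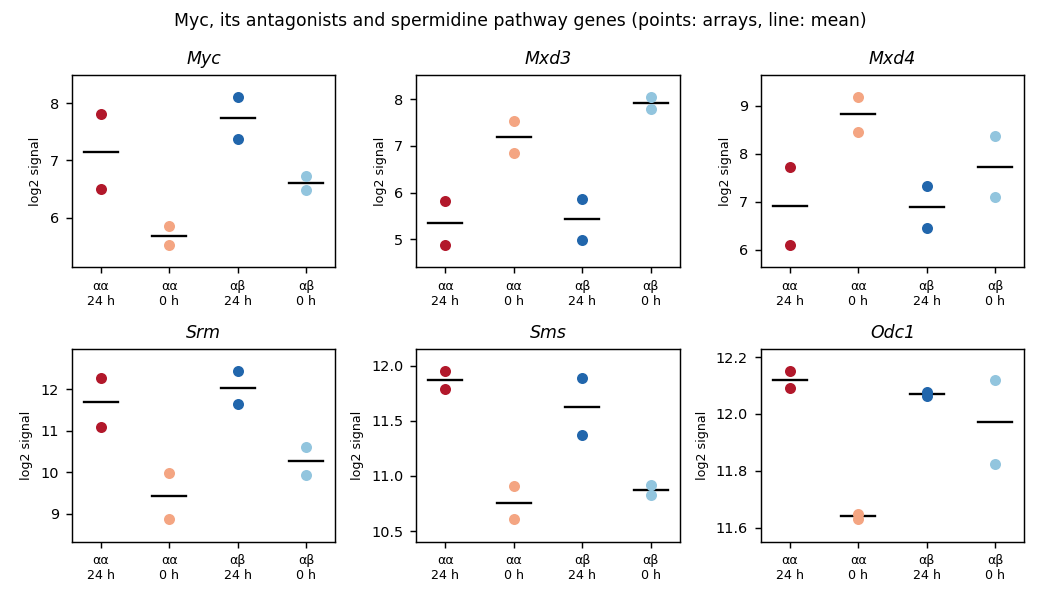
Normalized log2 signal (vertical axis) of Myc, its antagonists and spermidine pathway genes on each array (points) with the mean of each group (line), in CD8αα IEL at 24 h and 0 h and CD8αβ IEL at 24 h and 0 h. Srm is higher on both arrays at 24 h than on both at 0 h in both subsets, and Mxd3 is lower.

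Summed signals of B cell, epithelial, myeloid and T cell marker lists were lower at 24 h than at 0 h in both subsets. Which cells these transcripts came from was not tested. Of 8 B cell markers, Ighm and Cd79b were detected while Cd79a, Ms4a1 and Pax5 were not. The list's summed signal above background was 418.7 to 418.8 in CD8αα IEL at 24 h, against 1919 to 2351 at 0 h, and 56.4 to 159 in CD8αβ IEL at 24 h, against 329 to 435 at 0 h. Of 10 epithelial markers, Cdh1 alone was detected, at a signal at least 4.09-fold lower in CD8αα IEL at 24 h than at 0 h (limma adjusted p = 0.026), and the keratins, Epcam and Vil1 were not. That list summed to 0 in CD8αα IEL at 24 h, against 124 to 267 at 0 h, and to 0 to 36.9 in CD8αβ IEL at 24 h, against 117 to 146 at 0 h. Of 9 myeloid markers 0 passed, and their summed signal was 0 in CD8αα IEL at 24 h, against 30.2 to 300.4 at 0 h, and 0 to 40.2 in CD8αβ IEL at 24 h, against 117 to 211 at 0 h. The 8 T cell markers summed to 22406 to 36187 in CD8αα IEL at 24 h, against 48962 to 56975 at 0 h, and to 25515 to 33188 in CD8αβ IEL at 24 h, against 42298 to 46175 at 0 h. The part of these transcripts in the responses of the ribosome assembly genes was not tested.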

How the data were processed

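Total RNA of 8 samples was hybridised to mouse Illumina bead arrays. Each deposited intensity is the mean signal of an ID's beads, not normalized per the file headers, and the deposited detection p-value sets each ID against the negative control beads of its array. The deposited log2 values were made by the authors with lumi, per the submitters' processing notes, and served as an alternative. The normal and exponential background model (limma 3.58.1 in R 4.3.3) took its background from the 22828 IDs read as single probes, with offset 16, which compresses the change of dim IDs, followed by quantile normalization and log2. An ID counted as detected at or above the lowest signal at which single probes of its array reached a detection p under 0.01, and IDs detected on both arrays of at least 1 group were tested (9961). One limma model with a mean per group (4 residual degrees of freedom) gave 5 comparisons, tested with simulated data before use. Per the rule used here, Myc, Srm, up to 3 called genes a role, the smallest p of a role without calls and the 6 smallest p of other assembly genes are described. Members and lists were chosen with earlier results of these data known. Folds of IDs undetected on both arrays of a group are lower bounds. Depth on an array is limited by its beads, and the array number limits precision.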

Additional observations from a re-analysis of the deposited data

How the results depend on the processing

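With 2 arrays a group, calls were few and depended on the processing, while directions seldom did. Over the 18 or 19 settings in which each was tested, 24 of 25 rows kept a positive change in CD8αα IEL (not Npm3) and 23 of 25 in CD8αβ IEL (not Ddx21 and Npm3). Beside the 6 of 25 rows that passed in CD8αα IEL, 2 of 18 tested rows passed with the deposited detection p as the filter. The number was 2 of 30 with no filter, 2 of 25 with the background from all IDs and 11 of 25 with no background correction. The count was 20 with the chip as a block, 0 on chip 1 alone, 0 with only the groups compared in the fit, and 0 to 3 without 1 array, fits with fewer residual degrees of freedom. Beside the 1 row in CD8αβ IEL, 2 passed with the chip as a block, 0 on chip 1 alone, 0 with only the groups compared and 0 to 1 without 1 array. The median log2 change in CD8αβ IEL ranged from 0.58 to 0.98 without 1 array, highest without replicate 2 at 24 h. Between the subsets at 24 h, the median of -0.10 ranged from -0.35 to 0.25 without 1 array. It was 0.23 with the chip as a block, 0.25 on chip 1 alone, 0.25 without replicate 2 of the CD8αα IEL at 24 h and 0.15 without replicate 1 of the CD8αβ IEL at 24 h, and the cause was not tested beyond the chip. Median scaling, the submitters' log2 values and the brightest ID per gene gave 5 to 7 calls in CD8αα IEL and 1 in CD8αβ IEL. All shares over all IDs in the text are those of the main fit, so the counts of the other settings have no such share beside them.

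The groups share replicate numbers 1 and 2. Deviations of equal numbers correlated with r of 0.533 to 0.698 over all IDs between groups, but 2 numbers per group, with no label that they mark a shared culture, do not establish a pairing. With the replicate number as a block, 22 of 25 rows passed in CD8αα IEL, 18 in CD8αβ IEL and 1 between the subsets at 0 h (Ppan). It changed no call between the subsets at 24 h or of the difference of the responses. These counts, too, cannot be set against the shares over all IDs of the main fit.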
